A study of Petromyzon marinus with 6 samples.

Results

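The brainstem of the sea lamprey, Petromyzon marinus, was examined here for 6 loci that carry names of transcription regulators of the circadian clock, of cyclic AMP (cAMP) signaling, of the Krüppel-like factor family and of the NF-kB pathway. They are NR1D1 (MSTRG.4746), NR0B2 (MSTRG.16552), CREM (MSTRG.3194), KLF7 (MSTRG.12416), KLF10 (MSTRG.165) and NFKBIE (MSTRG.17326). All 6 loci were found by identifier among the 57134 loci of the count table, and all 6 were among the 24300 loci that passed the filter on low counts. The lowest count of any of the 6 in any sample was 97, so that none passed the filter through 1 group alone. The 6 loci were chosen from the list of loci that the study called in a separate experiment with baclofen, an agonist of the GABAB receptor, whose samples were not analysed here, and the choice was made with results for the present samples known. The names come from that same list and rest on the study's annotation of assembled transcripts. For the baclofen experiment, sampled earlier after the lesion, the paper reports higher expression of KLF7 and KLF10 in treated animals. The directions of the other regulators in that experiment are not given here.

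Larvae aged between 5 and 7 years with a complete spinal cord transection were left in water with 500 µM GABA (γ-aminobutyric acid, a neurotransmitter) or, as controls, in water without it. Lesioned animals make up both groups, so that no uninjured level is given. Brainstems were taken at 29 days post-lesion by the study's methods, whereas the deposited series text gives 9 days. Each of the 3 control and 3 GABA-treated samples pooled the RNA of 4 brainstems from different animals. A pooled brainstem library mixes neurons, glia, vessels and blood, and fewer cells of a type cannot be told apart from less RNA per cell. The hour of dissection is not given in the sources used here.

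The products of these genes have distinct places in transcription. In mammals, NR1D1 (also called Rev-erb alpha) is a nuclear receptor that represses clock genes and is itself driven by the clock, and NR0B2 (small heterodimer partner) is a nuclear receptor without a DNA-binding domain that represses other nuclear receptors by binding them. CREM encodes factors that bind cAMP response elements, some of them activators and others repressors, while NFKBIE encodes an inhibitor that keeps NF-kB out of the nucleus. KLF7 and KLF10 are zinc-finger proteins. KLF7 is known in mammals for promoting the outgrowth of axons, and KLF10 as an early response gene of TGF-beta signaling.

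Libraries held between 12261374 and 14666153 counted fragments. The 4 neuronal marker loci (CPLX1, GABRA5, CARTPT and MAP6) summed to between 16365 and 19534 normalized counts per sample, with MAP6 down to 2 raw counts, and the 2 glial marker loci (VIM and SoxE1) to between 6904 and 10839. The 4 blood and immune marker loci (PTPRC, VLRA, CD62L and TLR2) summed to between 431 and 731, below the neuronal and glial sums in every sample. The sums add different loci without scaling to length, so that they do not compare the amounts of cell types. VIM alone held 10218 of the glial 10839 in control replicate 1. All these marker loci were taken from the loci that the study called in its GABA or baclofen experiment. Normalized counts are counts divided by the size factors of DESeq2. The samples have separate labels and the animals were kept in tanks of their own, but whether the pools were extracted separately is not stated. The p-values of the group comparison set the difference between the groups against the spread between these pools, not between single animals.

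NR1D1 had normalized counts of 664, 638 and 439 in control replicates 1, 2 and 3, and of 561, 441 and 356 in GABA-treated replicates 1, 2 and 3. Control replicates 1 and 2 were the highest of the 6 samples and GABA replicate 3 the lowest, while control replicate 3 lay among the GABA-treated samples. Group means stood at 580.5 ± 124 (SD, n = 3) in the controls and 453 ± 103 (SD, n = 3) under GABA. The log2 fold change was −0.35 (95% interval from −0.73 to 0.03), and edgeR (quasi-likelihood test) gave an adjusted p of 0.797, by Benjamini-Hochberg over all loci tested. The locus lies on contig PIZI01000005.1 of Pmar_germline 1.0 between 22057474 and 22076731, on the plus strand, and has 10 exon blocks that add up to 7799 bp.

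NR0B2 showed the smallest difference between the group means among the 6. Its normalized counts were 127, 182 and 113 in the controls and 129, 146 and 126 under GABA, in the order of the replicate numbers. Control replicate 2 was the highest sample and control replicate 3 the lowest, so that the GABA-treated samples lay inside the range of the controls. Controls averaged 141 ± 36.7 (SD, n = 3) and treated samples 134 ± 10.9 (SD, n = 3), which gave a log2 fold change of −0.06 (95% interval from −0.45 to 0.34, edgeR adjusted p = 0.977). Without control replicate 2 the log2 fold change was 0.18, in the other direction and with an adjusted p of 0.891 from the same edgeR test. NR0B2 lies on contig PIZI01000023.1 between 13383474 and 13400234, on the minus strand, and has 2 exon blocks.

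CREM, the locus of the cAMP pathway, had 258, 338 and 301 normalized counts in the controls and 265, 229 and 210 under GABA. The groups overlapped through a single pair of samples, GABA replicate 1 and control replicate 1, and the GABA-treated sample was the lower in 8 of the 9 comparisons of a treated with a control sample. Group means stood at 299 ± 40.2 (SD, n = 3) and 235 ± 28.2 (SD, n = 3). The log2 fold change was −0.33 (95% interval from −0.61 to −0.05), and edgeR gave an unadjusted p of 0.0251 and an adjusted p of 0.737. CREM lies on contig PIZI01000004.1 between 4585052 and 4607333, on the plus strand, and has 4 exon blocks.

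KLF7 was the steadiest of the 6 loci, with 338, 331 and 395 normalized counts in the controls and 337, 290.2 and 299.5 under GABA. GABA replicate 1 stood level with control replicates 1 and 2, and the other GABA-treated samples lay below every control. Controls averaged 355 ± 35.0 (SD, n = 3) and treated samples 309 ± 24.7 (SD, n = 3), which gave a log2 fold change of −0.18 (95% interval from −0.41 to 0.04, edgeR adjusted p = 0.798). Expressed as a fold, the interval ran from 0.753 to 1.03. KLF7 lies on contig PIZI01000016.1 between 12532541 and 12544535, on the minus strand, and has 4 exon blocks.

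KLF10, the second Krüppel-like factor, had 618, 882 and 625 normalized counts in the controls and 556, 611 and 497 under GABA. Control replicate 2 stood well above the other samples, and the groups were parted by the small gap between control replicate 1 and GABA replicate 2. With TMM scaling in place of size factors this gap was lost. Controls averaged 709 ± 150.4 (SD, n = 3) and treated samples 555 ± 57.4 (SD, n = 3), which gave a log2 fold change of −0.34 (95% interval from −0.64 to −0.04, unadjusted p = 0.0301, edgeR adjusted p = 0.738). Without control replicate 2 the log2 fold change was −0.15 and its unadjusted p in edgeR's test 0.195. KLF10 lies on contig PIZI01000001.1 between 5885474 and 5907392, on the plus strand, and has 6 exon blocks.

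NFKBIE had the widest range of the 6 over all samples, its highest value being 2.25 times its lowest. It had 153, 215 and 163 normalized counts in the controls and 187, 109 and 95.6 under GABA. GABA replicate 1 lay above control replicates 1 and 3, whereas GABA replicates 2 and 3 were the lowest of all samples. Controls averaged 177 ± 33.4 (SD, n = 3) and treated samples 130.3 ± 49.1 (SD, n = 3), which gave a log2 fold change of −0.42 (95% interval from −0.92 to 0.08, edgeR adjusted p = 0.797). Without GABA replicate 1 it was −0.77, with an adjusted p of 0.401 from the same edgeR test. NFKBIE lies on contig PIZI01000025.1 between 4974884 and 4982490, on the plus strand, and has 6 exon blocks.

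**Figure D1:**
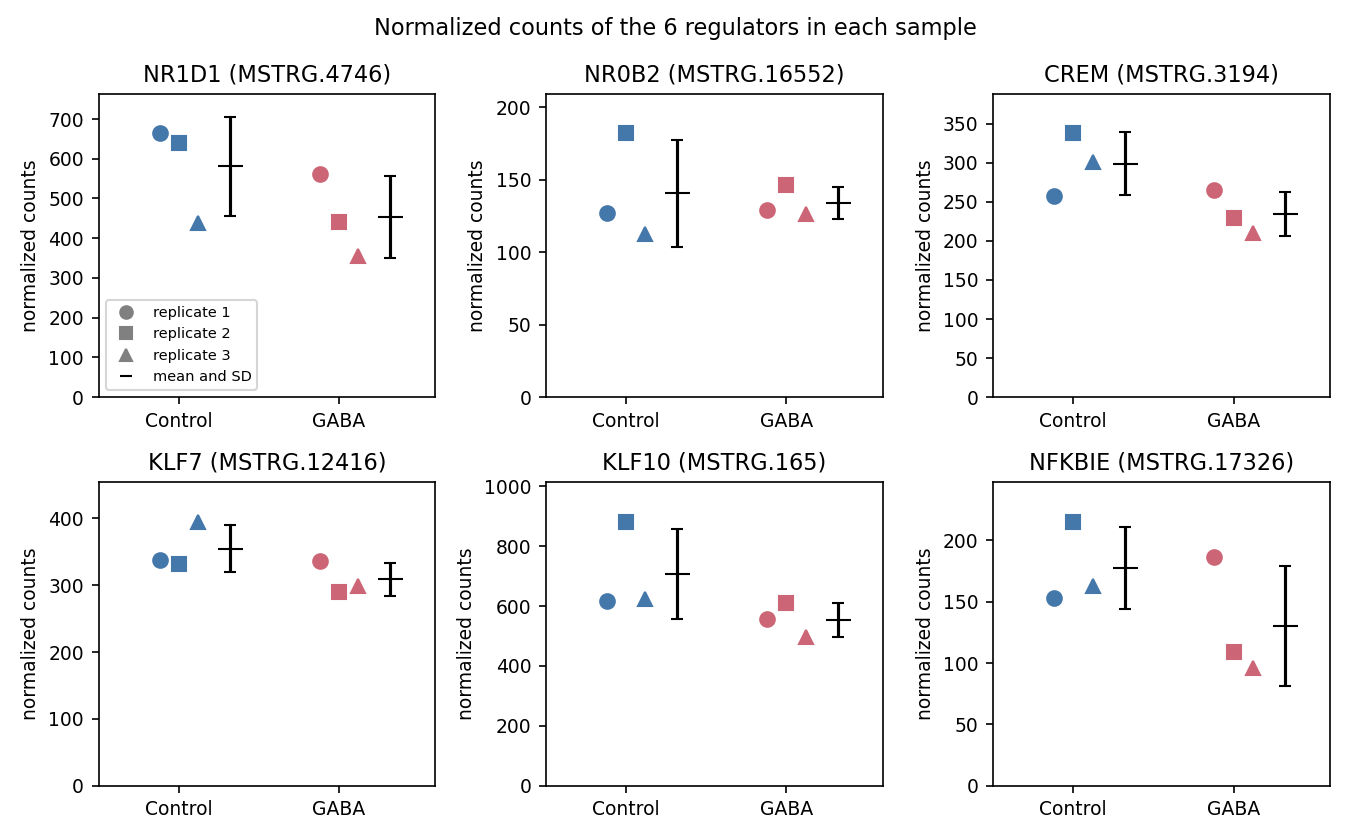
Normalized counts (y axis, from 0) of the 6 regulators in the control (blue) and GABA-treated (red) samples, with replicates 1, 2 and 3 as circles, squares and triangles and the mean and SD of each group as bars. Control replicate 2 is the highest control for NR0B2, CREM, KLF10 and NFKBIE, and GABA replicate 3 is the lowest treated sample for every locus but KLF7.

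The comparison of the groups asks whether GABA treatment after the lesion shifted the transcripts of these regulators. None of the 6 passed the test: edgeR's quasi-likelihood test called 0 of the 6 and 0 of the 24300 loci tested (0%) at an adjusted p under 0.05. All 6 had a log2 fold change below 0, with a median of −0.33, where 48.5% of all loci tested were below 0 and their median was 0.01. Among the 12260 loci with a mean count of at least 100, which include all 6, 56.8% were below 0. At an unadjusted p under 0.05 in edgeR's test, CREM and KLF10 were lower after GABA, 2 of 6 beside 3.47% of all loci. The groups did not overlap at 1 of the 6, KLF10, beside 7.06% of all loci with the GABA-treated samples lower, and a two-sided exact permutation test of 3 against 3 samples gave it p = 0.1, the smallest value that test can give. For the other 5 the exact permutation p lay between 0.2 and 0.9. DESeq2, the tool of the study, called 23 of the 5990 loci to which it gave an adjusted p (0.384%) and none of the 6. It gave an adjusted p to 2 of the 6, which was 0.517 for NR1D1 and 0.355 for KLF10. The 6 loci are not independent of each other, and they were not picked blind to these samples, so that their common sign is a description only.

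**Figure D2:**
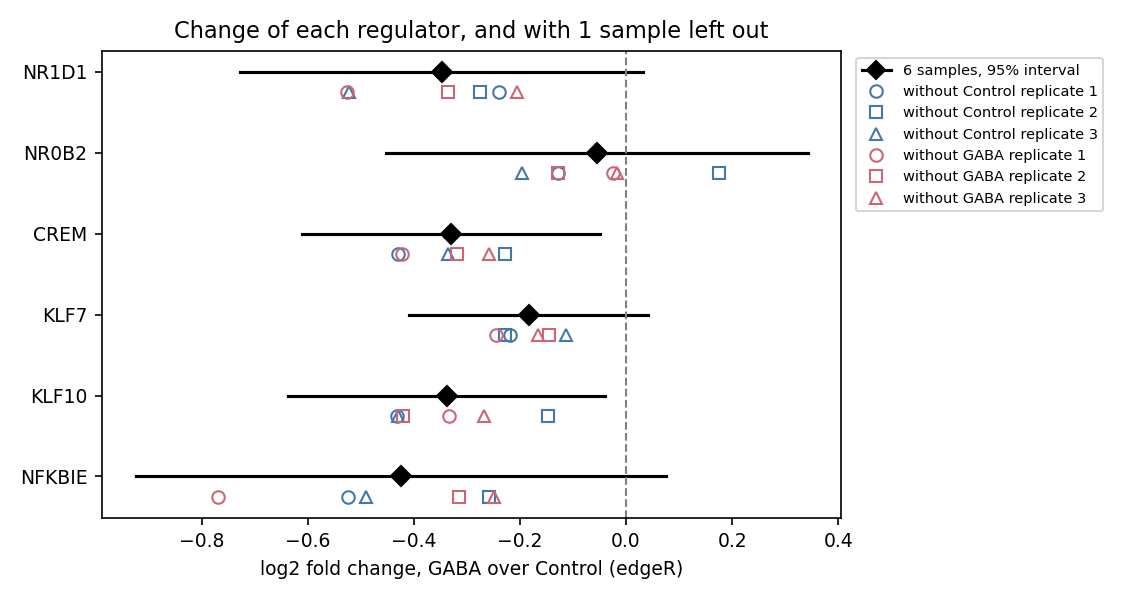
Log2 fold change of each regulator, GABA over control, from edgeR (x axis), with its 95% interval (black) and the value with each sample left out (open symbols below, blue for a control and red for a GABA-treated sample). The intervals of CREM and KLF10 stay below 0 before adjustment, and NR0B2 is at 0.18 without control replicate 2.

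The 6 loci differed in their spread between replicates. For the controls the coefficient of variation was 21.3% for NR1D1, 26.1% for NR0B2, 13.5% for CREM, 9.87% for KLF7, 21.2% for KLF10 and 18.9% for NFKBIE, where counting error alone gives between 3.84% and 8.61%. Under GABA it ran from 8.0% for KLF7 to 37.7% for NFKBIE, and that of NR0B2 (8.15%) was no larger than its counting error (8.38%). The tagwise dispersion of edgeR, a squared coefficient of variation net of counting error, was 2.83 times the trend at the same abundance for NR1D1, 2.20 times for NFKBIE and 1.97 times for KLF10. For KLF7 it was 0.751 times the trend. Among all loci tested, without regard to abundance, the dispersions of the 6 stood at percentiles from 26.6 for KLF7 to 76.1 for NFKBIE, with NR1D1 at 56.8.

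Scaled to exon length and library size (FPKM, computed here with TMM scaling), KLF10 was the most abundant of the 6 at a mean of 7.97 over all samples, followed by KLF7 at 5.43, NR1D1 at 5.00, CREM at 4.33, NFKBIE at 3.81 and NR0B2 at 2.29. These levels placed KLF10 above 75.6% and NR0B2 above 38.3% of all loci tested. The range over samples overlapped between all neighbours in this order. Within each library, however, KLF10 exceeded KLF7 in 6 of 6 samples and NFKBIE exceeded NR0B2 in 6 of 6. KLF7 exceeded NR1D1 in 4 of 6, NR1D1 exceeded CREM in 5 of 6, and CREM exceeded NFKBIE in 5 of 6, so that the middle of the order is not fixed.

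**Figure D3:**
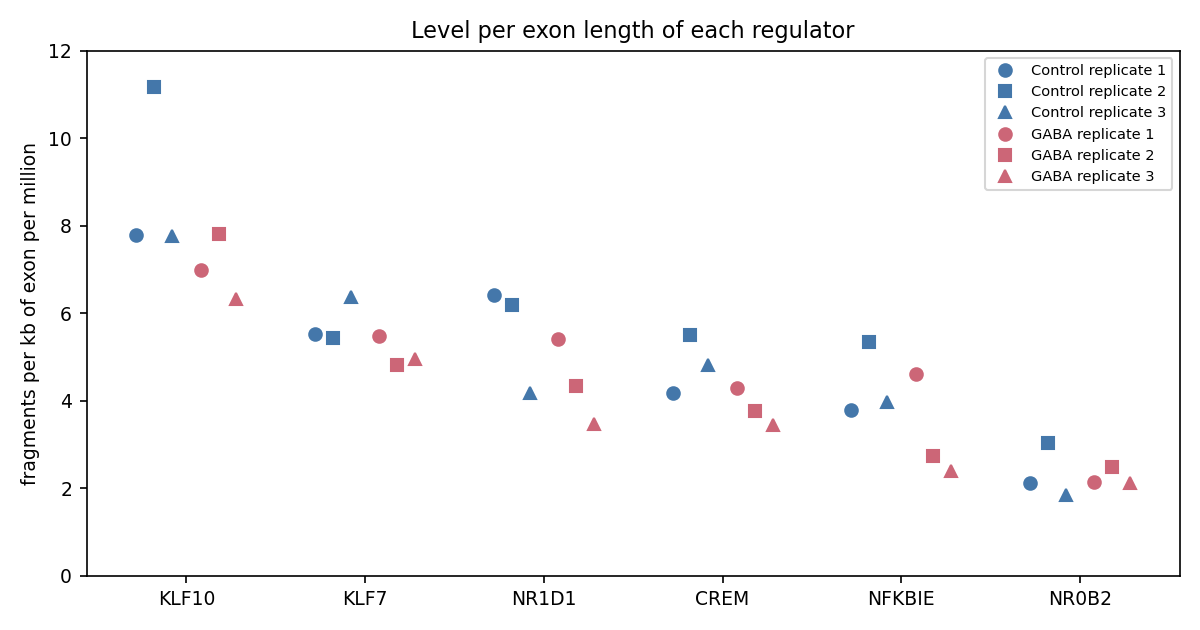
FPKM (y axis, from 0) of the 6 regulators, ordered by their mean, in control (blue) and GABA-treated (red) replicates 1, 2 and 3 (circle, square, triangle). KLF10 is the highest locus in every library and NR0B2 the lowest, and the ranges of neighbours overlap.

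The 6 loci did not share the same highest and lowest samples. Among the controls, replicate 2 was the highest for NR0B2, CREM, KLF10 and NFKBIE, while replicate 1 was the highest for NR1D1 and replicate 3 for KLF7. Among the treated samples, GABA replicate 1 was the highest for NR1D1, CREM, KLF7 and NFKBIE, and GABA replicate 2 for NR0B2 and KLF10. GABA replicate 3 was the lowest treated sample for 5 of the 6, the exception being KLF7. By the study's read statistics, if numbered alike, trimming removed the largest share of read pairs from GABA replicate 3 and the smallest from GABA replicate 1. A part of read quality in these ranks was not tested.

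Of the 15 pairs of regulators, 14 had a positive Pearson's r of log2 CPM over the 6 samples, with a median of 0.61. All 6 loci had lower means after GABA and were chosen with these samples known, and this shared difference enters r. The share of positive pairs over all loci tested was not computed, so that neither this count nor the one below sets the 6 apart. No pair passed a two-sided exact permutation test over the 720 pairings after Benjamini-Hochberg adjustment over the 15 pairs, where the smallest adjusted p was 0.251. The closest pair was CREM and NFKBIE, with r = 0.91 (exact permutation p = 0.0167) and Spearman's rho = 0.943 (exact permutation p = 0.0167), each with an adjusted p of 0.251. It kept r = 0.708 without control replicate 2 and GABA replicate 3, the samples farthest from the median of CREM, and r = 0.877 once the group means were subtracted. The r of CREM with NFKBIE thus stayed positive in these settings, although it failed the adjustment and was the highest of 15. It was not particular to the pair. Of all loci tested, 221 (0.91%) were closer to CREM than NFKBIE was, and 155 (0.638%) were closer to NFKBIE than CREM was. For KLF7, 3516 loci (14.5%) were closer than the nearest other regulator.

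CREM and KLF10 followed with r = 0.836 (exact permutation p = 0.0417, adjusted 0.313) and rho = 0.486 (exact permutation p = 0.356, adjusted 0.628). This relation rested on control replicate 2 and GABA replicate 3, without which r was −0.108. NR0B2 and KLF10 had r = 0.766 (exact permutation p = 0.108, adjusted 0.347) and rho = 0.543 (exact permutation p = 0.297, adjusted 0.628). With the group means subtracted their r was 0.95, the closest of all pairs within the groups. With the group means left in, r was −0.538 without control replicate 2 and GABA replicate 2. The within-group r without these samples was not computed. NR0B2 and KLF7 were the pair with a negative value, at r = −0.449 (exact permutation p = 0.372, adjusted 0.558) and rho = −0.714 (exact permutation p = 0.136, adjusted 0.628), and r = −0.855 without the samples farthest from the median of NR0B2. Subtraction of the group means left 12 of the 15 pairs positive, with a median r of 0.43.

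**Figure D4:**
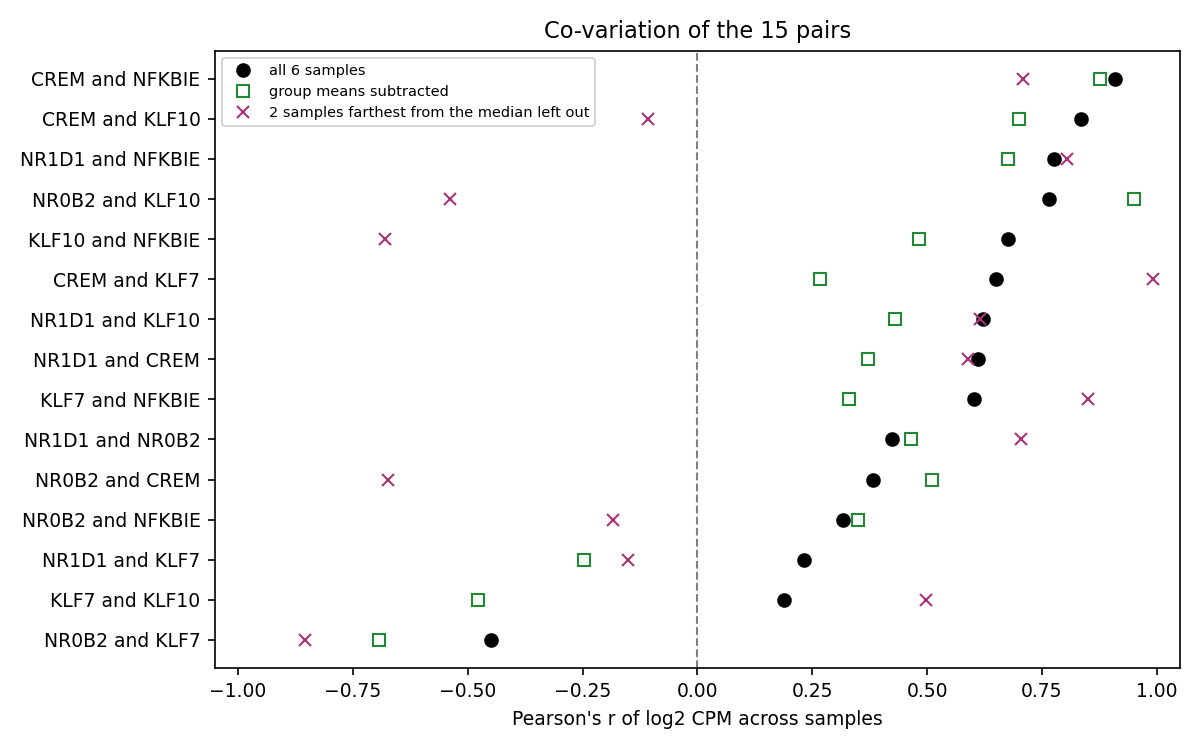
Pearson's r of log2 CPM across samples (x axis) for the 15 pairs of regulators, over all 6 samples (black circles), with the group means subtracted (green squares) and without the 2 samples farthest from the median of the first locus (crosses). CREM and NFKBIE stay above 0.7 in all 3. NR0B2 and KLF10 are at 0.766 over all 6 samples and at 0.95 with the group means subtracted. They are at −0.538 without 2 samples and with the group means left in.

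Outside the 6, each locus was set beside the 58 other loci with a symbol in the study's lists that passed the filter, and the locus with the highest r was taken. The study called some of the 58 in these same samples, and a shared difference between the groups enters r. NR1D1 was most like DYRK2 (MSTRG.8329, a protein kinase), with r = 0.955, and NR0B2 was most like VLRA (a variable lymphocyte receptor, an antigen receptor of lamprey lymphocytes), with r = 0.94. KLF10 was most like PTPRC (CD45, a surface phosphatase of white blood cells), with r = 0.963. CREM was most like FTH1, the ferritin heavy chain that stores iron, with r = 0.947, and KLF7 was most like PTGES3, a co-chaperone, with r = 0.906. NFKBIE was most like TRIB2, a pseudokinase, with r = 0.888. With the group means subtracted, r with the same locus was 0.938 for NR1D1, 0.976 for NR0B2 and 0.876 for CREM. It was 0.875 for KLF7, 0.963 for KLF10 and 0.824 for NFKBIE. The share of all loci tested with r over 0.9 was 0.593% for NR1D1, 0.597% for NR0B2, 1.14% for CREM, 2.59% for KLF7, 0.626% for KLF10 and 0.819% for NFKBIE. Over all loci tested, named or not, 28 were closer to NR1D1 than DYRK2 was, 58 closer to NR0B2 than VLRA, 89 closer to CREM than FTH1, 570 closer to KLF7 than PTGES3, 24 closer to KLF10 than PTPRC and 248 closer to NFKBIE than TRIB2.

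FTH1 had 417, 518 and 458 normalized counts in the controls and 393, 355 and 265 under GABA, without overlap, and a log2 fold change of −0.44 (edgeR adjusted p = 0.729). PTPRC had 147, 221 and 159 in the controls and 143, 167 and 115 under GABA. VLRA had 159, 261 and 108 in the controls and 163, 218 and 175 under GABA. For all 3 control replicate 2 was the highest sample, as it was for NR0B2, CREM, KLF10 and NFKBIE.

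Since VLRA and PTPRC belong to the 4 blood and immune marker loci, the summed level of those 4 was then set beside each regulator. The 4 were taken from the loci that the study called in its GABA or baclofen experiment. How well their sum measures blood in this tissue was not tested. The sums were 484, 731 and 431 normalized counts in the controls and 494, 579 and 445 under GABA, so that the groups overlapped. NR0B2 ranked the 6 samples in the same order as the sum, with r = 0.985 on the log2 scale (exact permutation p = 0.00139, adjusted over the 6 regulators 0.00834) and rho = 1.0 (exact permutation p = 0.00278, adjusted 0.0167). It kept r = 0.817 without control replicate 2 and GABA replicate 2, the samples farthest from the median of the sum, and r = 0.987 with the group means subtracted. The full match of ranks is fragile. NR0B2 had 127 normalized counts in control replicate 1, 129 in GABA replicate 1 and 126 in GABA replicate 3. These values lie closer together than its counting error, 8.61% for the controls and 8.38% under GABA. The relation of NR0B2 with the sum was examined after VLRA had been found most like NR0B2 in the same samples, so that its p-values are no independent test.

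For KLF10, r with the sum was 0.826 (exact permutation p = 0.0542, adjusted 0.163) and rho 0.257 (exact permutation p = 0.658, adjusted 0.658). Its r was 0.03 without the same 2 samples, on which the relation over all 6 therefore rests, and 0.974 with the group means subtracted. The other regulators lay between −0.318 for KLF7 and 0.5 for NR1D1, with adjusted exact permutation p between 0.494 and 0.543. These values depended on VLRA. With VLRA taken out of the sum, r was 0.947 for KLF10, 0.86 for NR0B2 and 0.744 for CREM. It was 0.667 for NFKBIE, 0.628 for NR1D1 and 0.05 for KLF7. NR0B2 was then no longer the closest, and KLF7 was no longer below 0. PTPRC, which remained in this sum, had been found most like KLF10 in the same samples (r = 0.963). The r and p-values of KLF10 with either sum are thus no independent test. With the log2 sum as a covariate in edgeR, the log2 fold change of NR0B2 was 0.05 (standard error 0.131) and that of KLF10 −0.26 (standard error 0.0782, unadjusted p = 0.00715, adjusted 0.716), and those of NR1D1, CREM, KLF7 and NFKBIE were −0.30, −0.30, −0.20 and −0.36, all short of the threshold after adjustment. The part of blood cells in the levels of these loci was not tested.

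**Figure D5:**
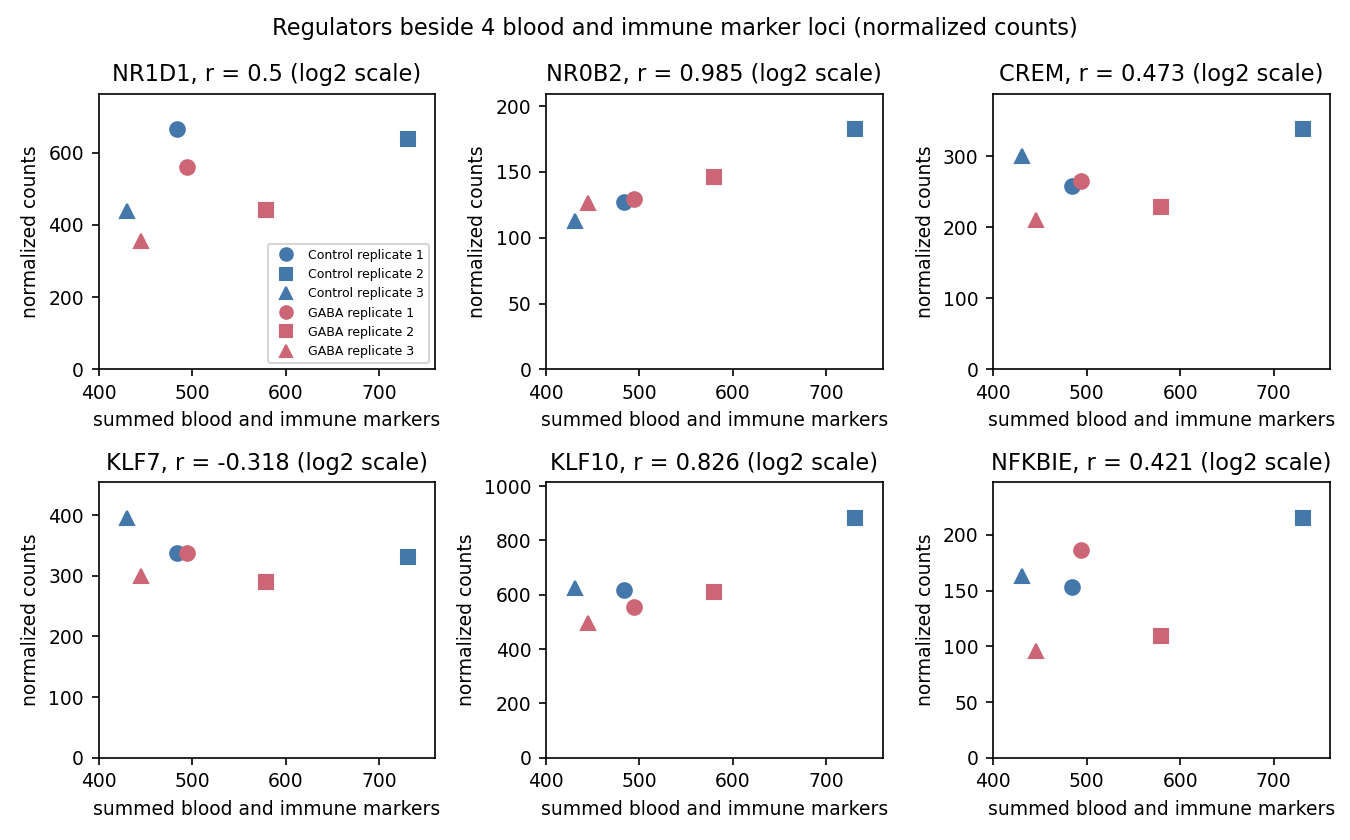
Normalized counts of each regulator (y axis, from 0) against the summed normalized counts of PTPRC, VLRA, CD62L and TLR2 (x axis, not from 0) in the 3 control (blue) and 3 GABA-treated (red) samples. NR0B2 follows the sum across both groups (r = 0.985), KLF10 is raised at control replicate 2, where the sum is 731, and KLF7 has r = −0.318.

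The other genes of these pathways were taken from the loci that the study called in the GABA or the baclofen experiment, and none passed the threshold. Of 3 loci named for NF-kB signaling, 2 were lower and 1 higher after GABA, with a median log2 fold change of −0.01. They were TLR2, an innate immune receptor, at −0.15, and 2 loci named TNFAIP3, a deubiquitinase that restrains NF-kB, at −0.01 and 0.50, and the smallest adjusted p in edgeR's test was 0.797. The TNFAIP3 locus at 0.50 (MSTRG.30682) had 39.5, 28.8 and 34.2 normalized counts in the controls and 57.0, 52.6 and 34.5 under GABA. A loose list of 8 signaling loci, grouped here for cAMP and immediate-early responses, held SGK1, PIM1, PIM3, DUSP1, GPR12, TRIB2 and 2 loci named DYRK2. Of these, 5 were lower and 3 higher, with 0 past an unadjusted p of 0.05 in edgeR's test. Among the 24300 loci tested, 842 were lower and 749 higher at that p. The median of the 8 was −0.12. The DYRK2 loci, at −0.12 and −0.15, and TRIB2, at −0.12, lie near that median, and their place in cAMP signaling is not shown here. Those with the smallest p were PIM1, a serine/threonine kinase, at −0.20 (edgeR adjusted p = 0.817), and DUSP1, a phosphatase that switches off MAP kinases, at −0.26 (edgeR adjusted p = 0.83). For 5 loci whose mammalian counterparts respond to glucocorticoids the median was −0.01, with 3 lower and 2 higher. DUSP1 and tryptophan 2,3-dioxygenase, a liver enzyme of tryptophan breakdown at −0.11, had the smallest p of that list.

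Among 11 other loci named for transcription regulators, 8 were lower and 3 higher, with a median of −0.09. The 2 with the smallest p came from the list that the study called in these same 6 samples, so that they are no independent evidence of a direction. HESB (MSTRG.35974), a repressor of the Hairy/Enhancer of split family, was at −0.45 (edgeR adjusted p = 0.504), and GTF2F2, a subunit of the general factor TFIIF, at −0.27 (edgeR adjusted p = 0.606). A second locus named HESB (MSTRG.35975) was at −0.35 (edgeR adjusted p = 0.729). The paper, which used DESeq2, reports HESB as the gene lowered with the greatest significance after GABA. HLF, a further clock-controlled factor in mammals, had 156, 149 and 100.2 normalized counts in the controls and 147, 178 and 148 under GABA, a log2 fold change of 0.23 (edgeR adjusted p = 0.835). HLF and NR1D1 thus had differences of opposite sign, and neither passed the test.

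Of the 3 neuronal marker loci that could be tested, CARTPT was at −0.32, GABRA5 at 0.55 and CPLX1 at −0.02, and of the 2 glial loci VIM was at −0.37 and SoxE1 at −0.02. The groups did not overlap for CARTPT, GABRA5 and VIM, which the study had called in these same samples. Of the 24300 loci tested, 2964 had groups without overlap in either direction. VIM, an intermediate filament of glia, had 10218, 7920 and 9714 normalized counts in the controls and 7199, 6323 and 7847 under GABA, without overlap (edgeR adjusted p = 0.718). The part of glia in the lower means of the regulators was not tested.

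All 6 regulators sit inside the span of at least 1 longer locus. The share of all loci placed in this way was not computed, so that it does not set the 6 apart. KLF10 lies within MSTRG.120, a locus on the opposite strand with 12420 ± 914 (SD, n = 3) normalized counts in the controls and 11810 ± 666 (SD, n = 3) under GABA, and r = 0.371 with KLF10. It also overlaps the start of MSTRG.164, a locus without a name on the opposite strand, by 4260 bp, with 0 bp of shared exon. MSTRG.164 had 156 ± 13.6 (SD, n = 3) normalized counts in the controls and 139 ± 11.6 (SD, n = 3) under GABA, and r = 0.93 with KLF10 over the 6 samples. The next locus on the side of lower coordinates, MSTRG.163, had r = 0.897 with KLF10, and the next on the other side, MSTRG.166, r = −0.31. These values are descriptions, beside the 0.626% of all loci tested that had r over 0.9 with KLF10.

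CREM lies within MSTRG.3192, which runs on the same strand, held 1251 ± 194 (SD, n = 3) normalized counts in the controls and 1245 ± 96.2 (SD, n = 3) under GABA, and had r = 0.173 with CREM. NFKBIE likewise lies within MSTRG.17325 on its own strand, with r = −0.605, and KLF7 within MSTRG.12413 on the other strand, with r = 0.281. NR1D1 lies within MSTRG.4742 on the other strand, which held at most 6 counts in a sample, and NR0B2 within MSTRG.16537, MSTRG.16538 and MSTRG.16549, which held at most 35. None of these neighbours shared an exon base with the regulator. The locus next to NR0B2, MSTRG.16551, lies 613 bp from it on the opposite strand and held at most 3 counts in a sample. The log2 fold change of NR0B2 with both summed was −0.05.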

How the data were processed

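RNA-Seq was performed by the authors on poly dT selected, stranded brainstem libraries, 3 of control larvae and 3 of larvae given GABA. Reads were trimmed with fastp, aligned with STAR in its 2-pass mode to Pmar_germline 1.0 (up to 10 alignments per read) and assembled into loci with StringTie, and featureCounts assigned fragments with both ends mapped, by strand. Versions are not given in the sources used here. The deposited values are the resulting counts, whole numbers without normalization. The stated settings hold no option to count fragments with several alignments, which affects near-identical copies. Of the 57134 records, 2 were broken over 2 lines and were rejoined. Each sample column matched a sample by its title.

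Loci were filtered with filterByExpr, scaled by TMM and compared with edgeR 4.0.16 (glmQLFit and glmQLFTest, treatment as the only term, two-sided, Benjamini-Hochberg adjustment, threshold 0.05) in R 4.3.3. Alternatives were DESeq2 1.42.0 with and without independent filtering, limma-voom (limma 3.58.1), other scalings and filters, the replicate number as a block, and each sample left out. Standard errors are the absolute log2 fold change over the root of F. Correlations used log2 CPM with a prior count of 2, and those with the blood markers log2 normalized counts. Exact tests enumerated every arrangement of the samples in Python 3.11.15 with pandas 2.3.3. Ranks and the adjustment of their p-values came from scipy 1.17.1, and figures were drawn in matplotlib 3.10.9.

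The members, lists and tests were chosen with earlier results of these data known. Beside the 6 loci, the text names the symbol-bearing locus most like each, the lists by role with the 2 smallest p values, overlapping and adjoining loci, and, chosen after values were seen, the values of HLF and VIM and those of the other marker loci. Fits were tested on simulated data. The RefSeq gene table (UKy_Petmar_22M1, another build) carried 2 of the 6 symbols and was used to look up symbols only, and no sequence was used here.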

Additional observations from a re-analysis of the deposited data

How the results depend on the processing

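Across 91 values of the 6 regulators under alternatives (15 settings each and, for NR0B2, its sum with MSTRG.16551), 89 stayed below 0 and 0 passed an adjusted p of 0.05. NR0B2 was above 0 in the other 2, at 0.176 without control replicate 2 and at 0.0454 with the blood markers as a covariate, a setting chosen after seeing the data. With 1 sample left out the log2 fold change ran from −0.526 to −0.205 for NR1D1, from −0.197 to 0.176 for NR0B2, from −0.43 to −0.229 for CREM, from −0.246 to −0.114 for KLF7, from −0.431 to −0.147 for KLF10 and from −0.77 to −0.249 for NFKBIE. Adjusted p ran over all settings from 0.465 to 0.999 for NR1D1, 0.891 to 0.999 for NR0B2, 0.467 to 0.999 for CREM, 0.563 to 0.999 for KLF7, 0.355 to 0.999 for KLF10 and 0.401 to 0.999 for NFKBIE, where DESeq2 gave one. edgeR's count of 0 loci stayed at 0 in 12 other fits, where 899 to 2247 loci had an unadjusted p under 0.05, and was 23 with DESeq2, 7 with DESeq2 without independent filtering and 58 in edgeR with no count filter. The cause was not tested. Same-numbered samples did not deviate together over all loci (r = −0.112, 0.0323 and −0.116), which cannot show whether they do so at some loci. With the replicate number as a block, edgeR's test of that term gave NR1D1 an unadjusted p of 0.000972 (adjusted 0.533). It gave KLF10 an unadjusted p of 0.00947 (adjusted 0.988), and the other regulators unadjusted values between 0.0693 and 0.623. With the replicate block edgeR called 0 loci, and the log2 fold changes were −0.345 for NR1D1 (unadjusted p = 0.00455, adjusted 0.88), −0.0344 for NR0B2, −0.328 for CREM, −0.183 for KLF7, −0.325 for KLF10 (unadjusted p = 0.00612, adjusted 0.88) and −0.456 for NFKBIE.

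Of 60 correlations under alternatives 8 changed sign. Without the 2 samples farthest from the median r was −0.151 for NR1D1 and KLF7, −0.674 for NR0B2 and CREM, −0.538 for NR0B2 and KLF10, −0.183 for NR0B2 and NFKBIE, −0.108 for CREM and KLF10 and −0.68 for KLF10 and NFKBIE. With the group means subtracted it was −0.246 for NR1D1 and KLF7 and −0.477 for KLF7 and KLF10. A prior count of 0.5 moved r by at most 0.001 and DESeq2's size factors by at most 0.04.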
